A study of Mus musculus with 6 samples.

Results

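Olfactory receptor (OR) pseudogenes are the OR gene copies whose names end in -ps, a suffix given to copies thought to have lost a working reading frame. They were taken by symbol, as every gene name that starts with Olfr and a number and ends in -ps, with or without a further number. This rule gave 151 of the 24564 gene names in the files, beside 1116 OR genes without the suffix, here called intact ORs, and 1267 OR names in all. Single-cell RNA-seq of cells from the main olfactory epithelium of mice gave 6 libraries. 2 swap libraries came from mice labelled Cbx*/* with a neuronal Cre driver, in which Cre replaces the coding sequence of Cbx1 (HP1β) by that of Cbx5 (HP1α) under the Cbx1 promoter. Control replicate 1 was labelled wild type with the Cre driver and control replicate 2 Cbx*/*, so the 2 controls differed in genotype. 1 library came from a gg8-tTA mouse (gg8tTA) and 1 from a gg8-tTA; tetOP2iresGFP mouse (tetOP2), in which the gg8-tTA driver switches on a transgenic copy of the P2 receptor, Olfr17. The series text states that all mice carried gg8-tTA constructs, which the genotype labels of the swap and control libraries do not list.

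The libraries held 32005196 to 63277934 UMIs, and any pair of them shared 0 to 13 cell barcodes. After the filters 9084 cells resembled olfactory sensory neurons (OSNs) by their markers, 5184 of them mature and 3900 immature. Median depth was 11287 to 12654 UMIs per mature OSN and 9157 to 12505.5 UMIs per immature OSN over the 6 libraries. Omp, the marker of mature OSNs, had a log2 fold change of 3.62 ± 0.15 (SE) in mature against immature OSNs, and Gap43, a growth cone gene of immature OSNs, one of -3.02 ± 0.15, and both passed the edgeR test described below. Both genes were among the markers that named the clusters, so this difference was built in and is no separate check. Cbx1, the gene removed in the swap, stood at 1.03 and 3.13 CPM (UMIs of the gene scaled to a common total per library and class) in mature OSNs of swap replicates 1 and 2, against 80.7 and 155 CPM in control replicates 1 and 2. Cbx5 stood at 73.8 and 89.3 CPM in the swap libraries and at 18.9 and 28.9 CPM in the controls. Neither gene overlapped between the swap and control libraries in mature OSNs.

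Each OSN is known to express a single OR allele out of the whole OR repertoire. OR protein made in the endoplasmic reticulum starts a feedback through the unfolded protein response, in which Atf5 is translated and Adcy3 is later induced, and this feedback stabilizes the choice. An OSN that picks a pseudogene makes no such protein and is known to be able to choose another OR. Each OR is also chosen in a limited zone of the epithelium, and dorsal OSNs carry Nqo1 while ventral ones carry Nrp2 and Ncam2.

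The suffix covered genes of more than 1 kind. GENCODE vM21, on GRCm38, listed 33 of the 151 members as protein coding, 35 as polymorphic pseudogenes, 68 as unprocessed pseudogenes and 11 as transcribed unprocessed pseudogenes. Olfr1096-ps1, which RefSeq lists as protein coding, was added to the 33, and these 34 are called coding members. The other 114 members listed in GENCODE, among them the 35 polymorphic pseudogenes, are called disrupted members. This name refers to the reference annotation, since the alleles of these mice were not examined. 3 names (Olfr418-ps1, Olfr406-ps and Olfr1116-ps) could not be placed, since RefSeq gives them as older names of genes that the files list separately. RefSeq called only 7 of the 33 GENCODE coding members protein coding and the other 26 pseudogenes. In the GENCODE transcripts the longest open frame over receptor-like sequence had a median of 314 codons in coding members and 157 codons in disrupted members, against 314 codons in intact ORs. 32 of 33 coding members with a transcript reached 300 codons, as did 4 of 111 disrupted members. Relative to the closest other receptor, 74 disrupted members first broke by a frameshift and 28 by a stop codon, and 9 showed no break in the aligned stretch. Members lay mainly on chromosomes 2 (64 members), 7 (24) and 11 (22). 17 members were at least 97% identical to another receptor and 13 overlapped another gene, so their counts are uncertain. The 17 include members that results below turn on. These are Olfr1372-ps1 (97.3% to Olfr1383), Olfr1274-ps (98.4% to Olfr1506), Olfr1369-ps1 (98.1% to Olfr263), Olfr364-ps1 (97.7% to Olfr365) and Olfr1532-ps1 (98.9% to Olfr707).

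The sequences of 6 members show both kinds, and they are printed because the results below turn on these genes or because they show how a member was broken. For 2 coding members, Olfr718-ps1 (chr5:143134014-143147581, minus strand) and Olfr1274-ps (chr2:90398683-90403897, plus strand), the start of the open frame is given with its ATG in capitals and then the end of the frame with its stop codon in capitals. The frames had 344 and 309 codons.
Olfr718-ps1 frame start: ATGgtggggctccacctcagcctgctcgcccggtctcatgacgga
Olfr718-ps1 frame end: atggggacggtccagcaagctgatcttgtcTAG
Olfr1274-ps frame start: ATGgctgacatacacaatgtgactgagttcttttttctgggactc
Olfr1274-ps frame end: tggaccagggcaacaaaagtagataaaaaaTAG

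For 4 disrupted members the site of the first break is given. Olfr1372-ps1 (chr11:52154722-52168159, minus strand) lacked 2 bases at codon 286 of its closest receptor Olfr1383, although its longest frame still spanned 345 codons, and Olfr300-ps1 (chr7:86435913-86445258, plus strand) lacked 1 base at codon 17 of Olfr310, and the capital is the first base after each gap. Olfr75-ps1 (chr11:73404076-73409887, minus strand) held 2 further bases at codon 118 of Olfr380, and Olfr396-ps1 (chr11:73925002-73929568, plus strand) held a stop at codon 72 of Olfr390, and these bases are in capitals. Codons are counted from the start of the closest receptor, and all sequences are on the strand of the gene, from GENCODE transcripts of GRCm38.
Olfr1372-ps1 break: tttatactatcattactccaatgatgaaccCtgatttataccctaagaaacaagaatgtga
Olfr300-ps1 break: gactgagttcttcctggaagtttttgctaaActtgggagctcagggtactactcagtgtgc
Olfr75-ps1 break: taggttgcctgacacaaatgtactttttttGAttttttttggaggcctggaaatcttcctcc
Olfr396-ps1 break: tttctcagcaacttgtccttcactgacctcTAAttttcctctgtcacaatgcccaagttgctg

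Per gene, coding members were found in about as many OSNs as intact ORs, and disrupted members in fewer. Counted as the highest OR of an OSN at 3 or more UMIs, coding members had a mean of 6.53 cells per gene, intact ORs 6.36 and disrupted members 0.982. The medians were 4.5, 4 and 0 cells. The intact mean includes Olfr17, driven by the transgene in tetOP2, and the intact OR with the most cells had 559. At least 1 such cell was found for 88.2% of coding members, 88.3% of intact ORs and 30.7% of disrupted members. 87 of the 151 members had any UMI in OSNs. Just outside the minimum of 3 UMIs, 698 OSNs had 1 UMI as their highest member count and 147 had 2, and just inside it 72 had 3, 48 had 4 and 332 had 5 or more.

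The share of all OR UMIs that came from disrupted members was lower in mature than in immature OSNs in every library, and that of coding members was not. Disrupted members gave 0.311%, 0.189%, 0.352%, 0.637%, 0.616% and 0.185% of the OR UMIs of mature OSNs in swap replicates 1 and 2, control replicates 1 and 2, gg8tTA and tetOP2. In immature OSNs of the same libraries they gave 1.82%, 1.12%, 0.793%, 1.39%, 2.74% and 1.33%. OR UMIs per cell ran from 77.1 to 113 in mature and from 30.5 to 49.8 in immature OSNs. A lower share thus need not mean fewer UMIs per cell. Disrupted members had 165, 208, 311, 886, 393 and 114 UMIs in mature OSNs of these libraries. In immature OSNs they had 557, 217, 294, 243, 607 and 258 UMIs. Per cell these counts were close between the stages in both controls and lower in mature OSNs of the other libraries. The mature share was below the immature share in 6 of 6 libraries, by a mean of -1.15 ± 0.60 percentage points (SD), with p = 0.03125 in an exact sign-flip permutation test, the smallest p that 6 libraries can give. After Benjamini-Hochberg adjustment over the 13 share comparisons of this kind the value was 0.102, which misses 0.05. This miss was nearly fixed in advance, since the exact tests cannot go below 0.03125 with 6 libraries or 0.333 with 2 against 2. It therefore decides nothing. The disrupted members of chromosome 11 and those of the other chromosomes each showed the lower mature share in 6 of 6 libraries, with mean differences of -0.597 and -0.555 percentage points. The split into coding and disrupted members was made after the data had been seen.

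Coding members gave 3.30%, 3.23%, 2.61%, 2.68%, 3.21% and 0.711% of the OR UMIs of mature OSNs in the same order of libraries, and 2.61%, 2.07%, 2.07%, 2.17%, 3.66% and 0.968% in immature OSNs. The mean difference was 0.365 ± 0.61 percentage points, positive in 4 of 6 libraries (exact sign-flip p = 0.219). The lowest shares were those of tetOP2, where the transgenic Olfr17 took most OR UMIs, and without Olfr17 in the total the coding share of tetOP2 was 1.76% in mature OSNs. All 151 members together held 0.896% to 4.01% of OR UMIs in mature and 2.31% to 6.53% in immature OSNs, a mean difference of -0.775 ± 1.06 percentage points that did not pass the test (exact sign-flip p = 0.156).

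**Figure D1:**
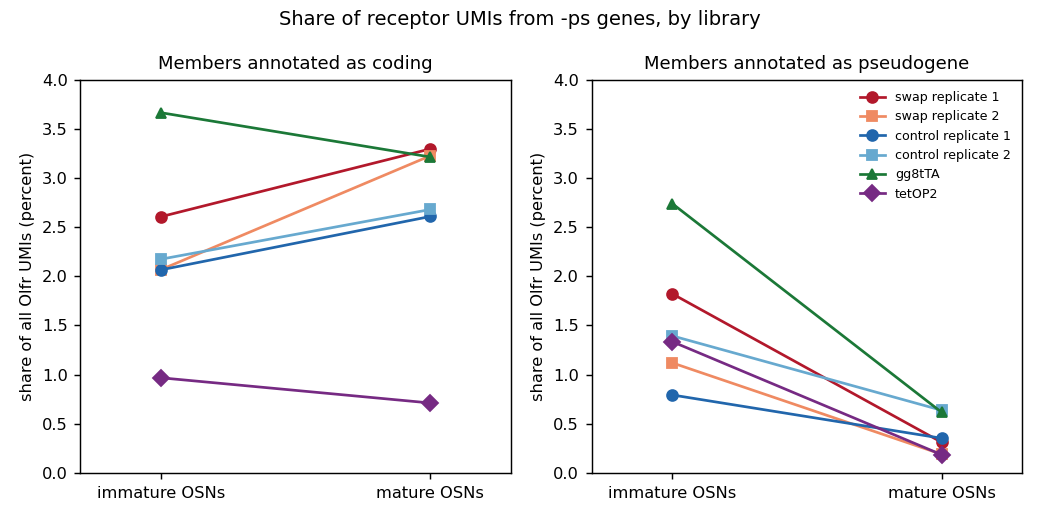
Share of all OR UMIs (percent, vertical axes) that came from coding members (left) and disrupted members (right) in immature and mature OSNs, with 1 line per library. Every line falls from left to right in the right panel, from 0.793% to 2.74% in immature to 0.185% to 0.637% in mature OSNs, whereas 4 of 6 lines rise in the left panel.

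A member reached 3 or more UMIs in 452 OSNs, 270 mature and 182 immature. This was 2.77% to 7.27% of the mature OSNs and 3.08% to 5.71% of the immature OSNs of a library, a difference of 0.240 ± 0.77 percentage points that was not told apart from 0 (exact sign-flip p = 0.531). In 304 of the 452 cells no intact OR reached 3 UMIs, and these are called pseudogene-only cells. In the other 148 cells the member stood beside an intact OR at 3 or more UMIs. Among pseudogene-only cells, 195 carried coding members, 94 carried disrupted members and 15 carried unplaced or mixed members. 6429 OSNs carried an intact OR at 3 or more UMIs and no member UMI at all, and these intact-only cells serve as the comparison. Pseudogene-only cells, in contrast, could hold intact OR UMIs below that level. For scale, a member reached 3 UMIs in 25 of 3439 sustentacular cells, support cells that do not use ORs, with 0% to 1.44% per library at median depths of 11777 to 19637 UMIs. A cluster of 131 of these cells, 86 of them from control replicate 2, had raised Omp at a median depth of 33467 UMIs. The share is therefore not a clean background.

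The share of pseudogene cells without an intact OR was 75%, 57.4%, 85.4%, 49.4%, 85.3% and 35.3% in mature OSNs and 75.6%, 73.9%, 76.1%, 80%, 75.8% and 33.3% in immature OSNs of swap replicates 1 and 2, control replicates 1 and 2, gg8tTA and tetOP2. The mean difference of -4.47 ± 15.9 percentage points did not pass the test (exact sign-flip p = 0.594). Among disrupted members alone the difference was -47.7 percentage points (exact sign-flip p = 0.03125), and the 63 mature cells with Olfr1372-ps1 beside an intact OR, described below, entered that count.

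In each library a smaller share of cells was mature among those that carried a disrupted member alone than among those that carried an intact OR alone. After adjustment over the 13 share comparisons neither this difference nor that of coding members passed 0.05. For disrupted members that outcome was nearly fixed in advance by the smallest p that 6 libraries can give. An intact OR reached 3 UMIs in 87.6% to 96.1% of the mature and 56.1% to 72.9% of the immature OSNs of a library. The rule for cells with a member alone therefore favours immature cells, and that for intact-only cells favours mature ones. The direction of the difference is thus not independent of these rules. In intact-only OSNs 48.4%, 75.4%, 60.6%, 84.5%, 61.9% and 62.4% of cells were mature in swap replicates 1 and 2, control replicates 1 and 2, gg8tTA and tetOP2. In coding-member-only cells it was 51.4%, 84.8%, 54.0%, 86.1%, 62.9% and 66.7%, a mean difference of 2.10 ± 5.23 percentage points, positive in 5 of 6 libraries (exact sign-flip p = 0.375). In disrupted-member-only cells it was 10.5%, 0%, 50%, 52.4%, 21.4% and 25%, from 19, 12, 24, 21, 14 and 4 cells, lower than in intact-only cells in 6 of 6 libraries by a mean of -39.0 ± 20.9 percentage points (exact sign-flip p = 0.03125, adjusted 0.102). Over all libraries 29 of 94 disrupted-member-only cells were mature (30.9%, exact 95% interval 21.7 to 41.2%), against 4226 of 6429 intact-only cells (65.7%) and 130 of 195 coding-member-only cells (66.7%). All pseudogene-only cells together were -9.17 ± 1.83 percentage points from intact-only cells, lower in 6 of 6 libraries (exact sign-flip p = 0.03125, adjusted 0.102), but only -4.51 points when every cell was thinned to 3000 UMIs (exact sign-flip p = 0.25). By Omp UMIs as a percent of Omp and Gap43 UMIs the difference was -3.52 ± 5.16 points and positive in 2 of 6 libraries. It did not pass the test (exact sign-flip p = 0.156).

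No mature disrupted-member-only cell had a member of chromosome 11 as its highest receptor. 1 mature cell of tetOP2 with Olfr1372-ps1 and no intact OR at 3 UMIs was outside this class, since it also held another member. Among disrupted-member-only cells whose highest receptor lay on chromosome 11, 0 of 37 were mature, which allows a share of up to 8.11% (3 of 37). Without Olfr1372-ps1 0 of 20 were mature, which allows up to 15%. These 20 cells came from 5 libraries and 9 genes, with a median of 14 UMIs of the member and a highest value of 106. Intact-only cells with a receptor of chromosome 11 were mature in 66.7% of 436 cells, and coding-member-only cells in 66.7% of 18. For disrupted members of chromosome 2 the mature share was 65.2% of 23 cells, beside 63.0% of 1160 intact-only cells of that chromosome, and for chromosome 7 it was 52.4% of 21 beside 67.3% of 1805. Without chromosome 11 the disrupted-member-only cells of swap replicates 1 and 2, control replicates 1 and 2, gg8tTA and tetOP2 were mature in 12.5%, 0%, 70.6%, 91.7%, 42.9% and 25% of 16, 1, 17, 12, 7 and 4 cells. Olfr650-ps1 of chromosome 7 was mature in 5 of 5 such cells and Olfr1001-ps1 and Olfr1021-ps1 of chromosome 2 in 3 of 3 each, genes named after their values had been seen. The mean difference from intact-only cells without chromosome 11 was -25.1 ± 32.0 percentage points and negative in 4 of 6 libraries (exact sign-flip p = 0.125). This split by chromosome was chosen after the values had been seen.

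**Figure D2:**
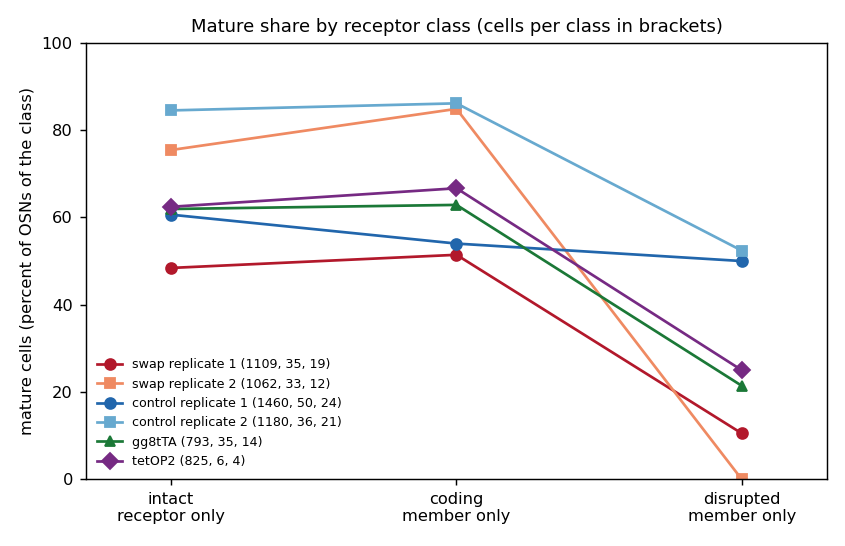
Percent of OSNs that were mature (vertical axis, 0 to 100%) among cells with an intact OR only, a coding member only and a disrupted member only, with 1 line per library and the cells of each class in brackets. All 6 libraries have their lowest value for disrupted members, from 0% to 52.4%, while intact-only and coding-member-only cells lie between 48.4% and 86.1%.

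Disrupted members also had fewer UMIs per cell. The highest receptor of a disrupted-member-only cell had a median of 8 UMIs, against 67 UMIs in coding-member-only and 67 UMIs in intact-only cells. Among cells at 3 to 9 UMIs, 25% of 52 disrupted-member-only and 38.6% of 464 intact-only cells were mature. Without Olfr1372-ps1 the first share was 13 of 35, or 37.1%. At 10 to 49 UMIs the shares were 44.4% of 27 and 48.7% of 1963, and at 50 UMIs or more 26.7% of 15 and 77.2% of 4002. Omp made up under 10% of the Omp and Gap43 UMIs in 56.4% of disrupted-member-only cells, 21.0% of coding-member-only cells and 20.3% of intact-only cells. By annotation, 44.4% of 63 cells with polymorphic pseudogenes as the only member, 33.3% of 6 with unprocessed and 18.2% of 11 with transcribed unprocessed pseudogenes other than Olfr1372-ps1 were mature. The part of the receptor level in the difference in maturity was not tested further.

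The members with the most OSNs were mostly coding ones. Olfr718-ps1 reached 3 UMIs in 31 OSNs, with a median of 142 UMIs and a highest value of 304, and 26 of these had no intact OR, 18 of them mature. It was found in 7, 9, 3, 3, 5 and 4 cells of swap replicates 1 and 2, control replicates 1 and 2, gg8tTA and tetOP2. Of its 18 mature cells 12 held an Nqo1 UMI and 1 an Nrp2 UMI. Olfr1274-ps was alone in all of its 22 cells, 18 of them mature, and 14 of the 18 mature cells held an Nrp2 UMI while 2 held an Nqo1 UMI. Olfr237-ps1 went the other way, with Nqo1 in 10 of 10 mature cells without an intact OR and Nrp2 in 0. Olfr329-ps had 9 mature cells alone, all with Nrp2 and none with Nqo1. Olfr1326-ps1 had 6 such cells, 4 with Nrp2 and 1 with Nqo1, and Olfr364-ps1 had 5, all with Nqo1. By Nqo1 and Nrp2 alone, coding members thus sat in dorsal and in ventral cells, and each of these 6 genes mainly in cells of 1 of the 2 markers. Other zonal genes were mixed. The dorsal gene Cartpt was in 6 of 6 such cells of Olfr1326-ps1 and 16 of 18 of Olfr1274-ps, and the ventral gene Nfix in 13 of 18 of Olfr718-ps1. Dorsal Acsm4 and ventral Ncam2 were in 0 and 6, 4 and 13, and 11 and 2 cells of these members in that order.

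Some members had few or no mature cells. Olfr75-ps1, a disrupted member with its reading frame broken at codon 118, reached 3 UMIs in 8 OSNs and none was mature, at a median of 29 and a highest value of 106 UMIs. Olfr300-ps1, also disrupted, had 2 mature cells of 12 at a median of 7 UMIs, and 8 of its 12 cells came from swap replicate 1. Olfr1369-ps1, a coding member with a frame of 317 codons, had 0 mature cells of 10 OSNs at a median of 5 UMIs. Outside OSNs it reached 3 UMIs in 18 further cells, 6 of them globose basal cells, the dividing progenitors of OSNs, and 3 of them immediate neuronal precursors. The rest were of other types, with 3 horizontal basal cells, 2 T or NK cells and 1 Bowman gland, 1 endothelial, 1 fibroblast and 1 respiratory ciliated cell. For Olfr1369-ps1 the cells outside OSNs were thus not limited to progenitors. The level of Olfr1369-ps1 per library was 0 to 12.9 CPM in globose basal cells and 0 to 19.8 CPM in precursors. It was 0.452 to 3.72 CPM in immature OSNs, within these ranges, and at most 0.169 CPM in mature OSNs. The 19.8 CPM of swap replicate 2 came from 21 UMIs in 2 of 86 precursors, so a higher level in progenitors was not seen in every library.

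**Figure D3:**
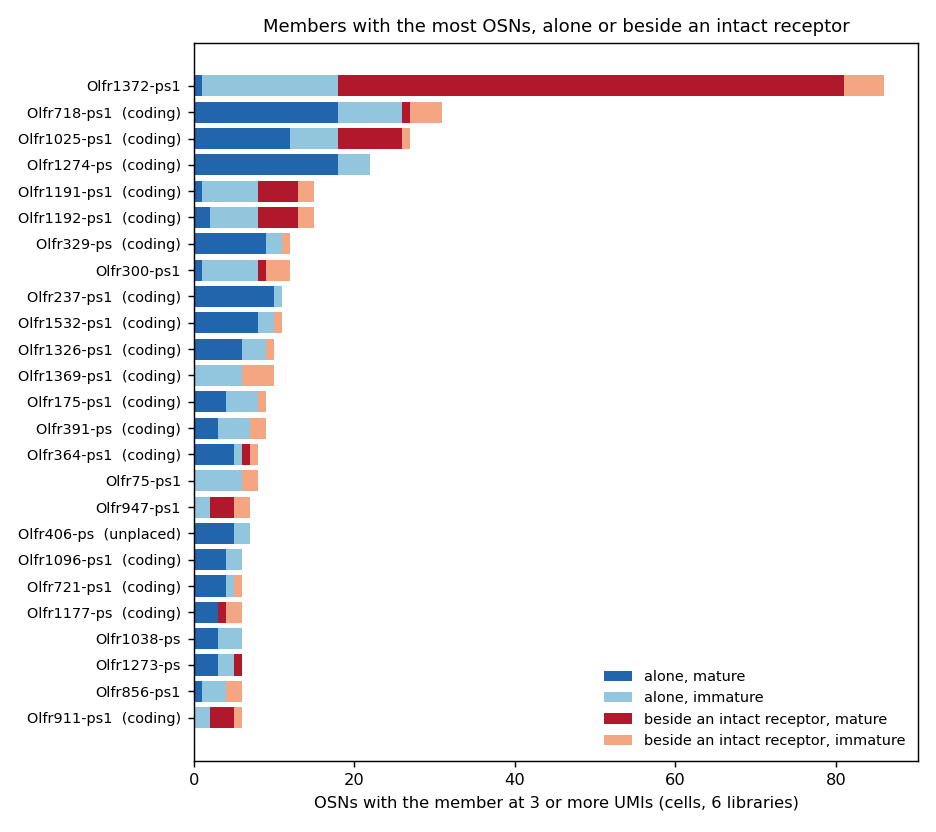
OSNs in which each of the 25 most frequent members reached 3 UMIs (horizontal axis, cells over 6 libraries), split by stage and by whether an intact OR also reached 3 UMIs. Olfr1372-ps1 has 86 cells, of which 63 are mature with an intact OR, while Olfr718-ps1, Olfr1274-ps, Olfr329-ps and Olfr237-ps1 consist mainly of mature cells without an intact OR.

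Of the 148 cells where a member stood beside an intact OR, 68 held Olfr1372-ps1 at low counts. Of the other 80 cells, 24 (30%) paired the member with the intact OR nearest to it, 35 paired genes of the same chromosome, and the member had more UMIs than the intact OR in 37. Olfr1025-ps1 stood beside Olfr1026 in all 9 of its shared cells, with medians of 13 and 8 UMIs. The genes lie 177 bases apart on the same strand and are 89.5% identical. Olfr1191-ps1 stood beside Olfr1193 in 5 cells (medians of 55 and 6 UMIs, 97.8% identity) and Olfr1315-ps1 beside Olfr1316 in 3 cells (56 and 5 UMIs, 99.2% identity). Olfr1177-ps and Olfr1176, 84 bases apart on opposite strands, shared 2 cells with medians of 6.5 and 155.5 UMIs. Reads of such pairs could be split or shared between the genes by the counting, and this was not tested.

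Olfr1372-ps1, which shares its locus with Gm26551, was present at few UMIs in many cells. It had a UMI in 544 OSNs and reached 3 UMIs in 86, with a median of 4 and a highest value of 11. In mature OSNs it had 12.3, 9.81, 6.27, 12.8, 3.45 and 15.5 CPM in swap replicates 1 and 2, control replicates 1 and 2, gg8tTA and tetOP2, and in immature OSNs 6.55, 11.1, 5.47, 11.98, 3.53 and 8.53 CPM, with overlap of the ranges. In the 63 mature cells where it stood beside an intact OR, the intact OR had a median of 121 UMIs, and the intact OR was one of 43 different genes. Olfr1372-ps1 was higher than its partner in 0 of the 68 shared cells of both stages, and its most frequent partners, Olfr1346 and Olfr727, had 5 cells each. It also had a UMI in 78 of 3439 sustentacular cells, 0.326% to 4.32% per library, against 3.04% to 11.3% of mature OSNs.

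In mature OSNs a UMI of Olfr1372-ps1 followed the zonal markers. Among mature OSNs with Nrp2 and no Nqo1, 19.8%, 16.1%, 11.03%, 15.9%, 7.32% and 20.8% had an Olfr1372-ps1 UMI in swap replicates 1 and 2, control replicates 1 and 2, gg8tTA and tetOP2. Among those with Nqo1 and no Nrp2 it was 1.61%, 0.880%, 0.297%, 0%, 0% and 1.60%. The 0 of 390 cells of control replicate 2 and the 0 of 219 cells of gg8tTA have exact upper limits of 0.941% and 1.67%. The difference was positive in 6 of 6 libraries, with a mean of 14.4 ± 4.56 percentage points (exact sign-flip p = 0.03125, the smallest possible), and the comparison was chosen after the data had been seen. Pooled, 274 of 1820 Nrp2 cells and 11 of 1723 Nqo1 cells had a UMI, at median depths of 13040.5 and 11434 UMIs.

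**Figure D4:**
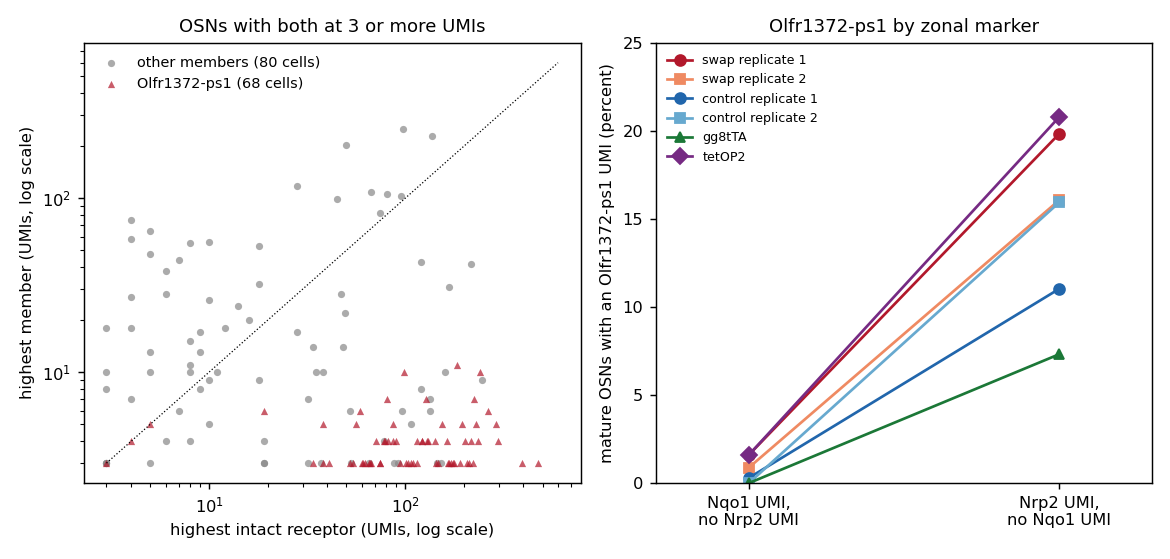
Left, UMIs of the highest member against UMIs of the highest intact OR in each OSN where both reached 3 (log axes, dotted line of equal counts), with Olfr1372-ps1 as triangles in 68 cells and other members as circles in 80 cells. Right, percent of mature OSNs with an Olfr1372-ps1 UMI among cells with Nqo1 only and with Nrp2 only, 1 line per library. All triangles lie on or below the line of equal counts, and all 6 lines on the right rise, from at most 1.61% to between 7.32% and 20.8%.

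Across all genes, mature OSNs with an Olfr1372-ps1 UMI beside an intact OR differed from intact-only mature OSNs in zonal genes among others. In the edgeR quasi-likelihood test over genes other than ORs, on sums per library, with the library as a block and 6 libraries, 358 of 10191 genes passed an adjusted p under 0.05 and a log2 fold change over 0.58, which is 3.51% of the genes tested, 224 of them higher and 134 lower. All 10 ventral genes of the list were higher, with a median log2 fold change of 1.52, beside 2.2% of all genes called higher and a median of 0.00 over all genes. They included Nrp2, an axon guidance receptor (1.41 ± 0.07 SE), Cidea, a lipid droplet protein (1.67 ± 0.07), and Nfia, a transcription factor (1.64 ± 0.13). 6 of 7 dorsal genes were lower, beside 1.31% of all genes, with Nqo1 at a log2 fold change of -4.00 ± 0.19 and Acsm4 at -3.01 ± 0.17. Nqo1 stood at 63.1, 105, 47.2, 0.807, 6.10 and 16.6 CPM in these cells of swap replicates 1 and 2, control replicates 1 and 2, gg8tTA and tetOP2, against 638, 773, 589, 632, 1010.3 and 633 CPM in intact-only cells, with no overlap. None of the 18 stress genes tested passed both limits. Ddit3, a transcription factor of the unfolded protein response, was at -0.49 ± 0.08 and Atf5 at -0.10 ± 0.04, while Adcy3 was at 0.43 ± 0.05 and Omp at 0.18 ± 0.04, none of them past the size limit.

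The same comparison for all members at 3 or more UMIs beside an intact OR rested on 3 libraries (swap replicate 2, control replicate 2 and tetOP2), and 63 of the 98 mature cells of this kind carried Olfr1372-ps1. 202 of 10031 genes passed (2.01%), 119 higher (1.19%) and 83 lower (0.827%), with 7 of 7 dorsal genes lower and 8 of 10 ventral genes higher. DESeq2 called 77 genes, 106 genes passed without control replicate 2, and 24 passed at a minimum of 5 UMIs. Without Olfr1372-ps1 too few cells were left to fit it. All comparisons with intact-only mature cells share the same intact-only sums.

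Few genes were called between mature pseudogene-only and mature intact-only cells. Over 5 libraries with at least 10 such cells, 9 of 9936 genes passed (0.0906%), all lower, while 486 had an unadjusted p under 0.05, and DESeq2 called none of them with 191 under 0.05. Of the 172 mature pseudogene-only cells of all 6 libraries, 130 carried coding members, 29 disrupted members and 13 unplaced or mixed ones. Swap replicate 2 had 0 with disrupted members. The comparison therefore says little about disrupted members. Of 17 stress and receptor feedback genes none passed, and their log2 fold changes ran from -0.16 to 0.32 with a median of 0.00. Omp was at 0.05 ± 0.04, Adcy3 at 0.04 ± 0.06, Atf5 at 0.03 ± 0.04, Ddit3 at -0.09 ± 0.08 and Gap43 at -0.01 ± 0.08. Both classes were taken from clusters named by maturity markers, so the levels of Omp, Gap43 and like genes were held close by that choice. Atf5 stood at 3005, 1943, 2865, 2216 and 3756 CPM in pseudogene-only cells of swap replicates 1 and 2, control replicates 1 and 2 and gg8tTA, and at 2729, 1982, 2969, 2153 and 3548 CPM in intact-only cells, higher in 3 of 5 libraries.

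Among the 9 genes that were lower, Bglap3, a member of the osteocalcin family, was at 514, 18.6, 9.22, 2.16 and 45.5 CPM in intact-only cells of those libraries and at 0, 0, 0, 0 and 6.10 CPM in pseudogene-only cells. Tshz1, a zinc finger transcription factor, was at 201, 421, 147, 241 and 145 CPM against 85.4, 72.8, 39.3, 143 and 82.4 CPM, lower in 5 of 5 libraries (log2 fold change -1.41 ± 0.13). Cd36, a scavenger receptor found in a minority of OSNs, was at -2.49 ± 0.29 and Cd55, a complement regulator of the dorsal list, at -1.26 ± 0.18. Tppp3, a tubulin binding protein, was at -0.91 ± 0.16 but turned to 0.54 without the coding members. The pseudogene-only sums came from 21 to 44 cells per library, so genes present in few cells are poorly sampled in them. Nqo1 was higher in 5 of 5 libraries at 0.33 ± 0.05, past the p limit and below the size limit. Among the mature disrupted-member-only cells 23 of 29 held Nqo1, 79.3%, against 46.2% of 130 coding-member-only and 42.1% of 4226 intact-only cells.

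Immature pseudogene-only cells differed more from immature intact-only cells. In 5 libraries 131 of 8921 genes passed (1.47%), 91 higher (1.02%) and 40 lower. Tex15, a gene of the immature list, was highest in size, at 405, 2207, 117, 1937 and 128 CPM in pseudogene-only cells of swap replicates 1 and 2, control replicates 1 and 2 and gg8tTA, against 42.0, 113, 6.23, 174 and 20.9 CPM in intact-only cells (log2 fold change 3.69 ± 0.16). Gap43 of the same list went the other way, at 2047, 1382, 2496, 1834 and 2040 CPM against 2405, 2637, 2507, 2828 and 2561 CPM in the same order of libraries. Without 1 library in turn its log2 fold change was -0.481 to -0.262, below the size limit. Crabp1, a retinoic acid binding protein, was at 2.90 ± 0.14. 4 of 8 mature genes were lower, with Omp at -0.85 ± 0.14 and Stoml3 at -1.56 ± 0.39, beside 0.448% of all genes called lower. Ventral genes went both ways, with Nrp2 at 1.05 ± 0.17 and Nfia at 1.69 ± 0.24 among the 4 that were higher and Rprm at -0.65 ± 0.12 lower. Of 18 stress genes only Atf3 passed, at -0.84 ± 0.22. The calls of Atf3 and Stoml3 were lost under 12 and 10 of 16 alternatives. The count of 131 fell to 67 without control replicate 2 and to 71 without swap replicate 2. With stage set by Omp and Gap43 UMIs in place of clusters, 2 genes passed, with Tex15 at 3.02 and Crabp1 at 2.31 but Nrp2 at 0.61 not called.

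Most of these calls rested on cells with Olfr1372-ps1. Without them 25 genes passed, Nrp2 stood at 0.21 and Nfia at 0.22 without a call, and Tex15 remained called at 2.77. In 17 immature OSNs Olfr1372-ps1 was the highest receptor, with no intact OR or coding member at 3 UMIs, and 13 of them (76.5%) held a Tex15 UMI and 16 (94.1%) a Crabp1 UMI. They had a median of 4 other OR genes with at least 1 UMI, with quartiles of 2 and 7. They came from swap replicates 1 and 2 (2 and 6 cells), control replicates 1 and 2 (2 and 6) and gg8tTA (1). In intact-only immature cells 5.95% of 2203 held Tex15, and the median number of other OR genes was 1. In the other 48 disrupted-member-only immature cells 4.17% held Tex15, with a median of 1 other OR gene. Tex15 was also found in 10 of 65 coding-member-only immature cells (15.4%). When pseudogene-only cells were required to hold no intact OR UMI at all, which left 2 libraries, 0 genes passed, 320 had an unadjusted p under 0.05 in edgeR, and Tex15 turned to -2.12.

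**Figure D5:**
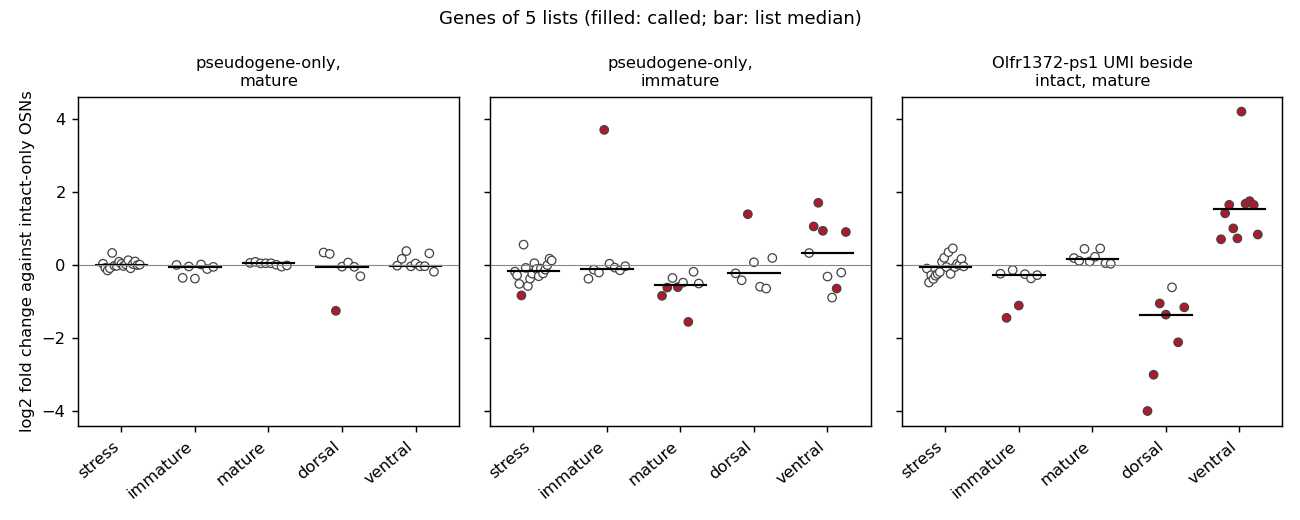
Log2 fold change (vertical axes) against intact-only OSNs for the genes of 5 lists in mature pseudogene-only cells, immature pseudogene-only cells and mature cells with an Olfr1372-ps1 UMI beside an intact OR. Each circle is a gene, filled where it passed both limits, and the bar is the median of the list, which is 0.00 for stress genes on the left and -1.37 for dorsal and 1.52 for ventral genes on the right.

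4 members were higher in mature OSNs than in immature OSNs among the 11 members that passed the filter on low counts, beside 20.9% of all genes called higher and 21% called lower, in the edgeR test over 6 libraries (4962 of 11855 genes called, 41.9%). Members that passed this filter had to be frequent in at least 1 stage. Olfr1274-ps stood at 16.6, 34.2, 11.6, 4.69, 14.2 and 0 CPM in mature and at 3.06, 0, 1.03, 0.226, 1.12 and 0.203 CPM in immature OSNs of swap replicates 1 and 2, control replicates 1 and 2, gg8tTA and tetOP2, higher in 5 of 6 libraries (log2 fold change 3.80 ± 0.62). Olfr329-ps (2.91 ± 0.82), Olfr1532-ps1 (2.63 ± 0.84) and Olfr718-ps1 (1.72 ± 0.65), all coding, were higher too, but these 3 calls were lost under 2, 3 and 6 of the alternatives in that order. The disrupted member Olfr856-ps1 was lower at -3.40 ± 0.93, and Olfr1372-ps1 was at 0.44 ± 0.17, below the size limit. Of 240 intact ORs tested, 59 were higher and 1 was lower.

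The swap and control libraries were not told apart in their use of members. In mature OSNs the members held 3.63% and 3.45% of OR UMIs in swap replicates 1 and 2 and 3.05% and 3.35% in control replicates 1 and 2, a mean difference of 0.341 percentage points (exact permutation p = 0.333, the smallest that 2 against 2 can give). Without Olfr718-ps1 the difference turned to -0.948 points. The share of mature OSNs with a member at 3 UMIs was 4.08% and 5.56% in swap and 4.52% and 7.27% in control libraries (difference -1.07 points, exact permutation p = 0.667). In immature OSNs members held 4.43% and 3.19% against 2.87% and 3.70% of OR UMIs (difference 0.527 points, exact permutation p = 0.667).

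No gene passed in mature swap against control OSNs in the edgeR test (0 of 12353, 0%), 316 genes had an unadjusted p under 0.05, and DESeq2 called 184. In immature OSNs 0 of 12037 genes passed (0%), with 238 under 0.05 and 82 called by DESeq2. Cbx1 and Cbx5, the genes changed by the swap itself, passed in neither stage, so the lack of calls does not show a lack of change. Of the 28 members tested in mature OSNs 10 had an unadjusted p under 0.05, beside 175 of 557 intact ORs tested, and of the 9 members tested in immature OSNs 0 had, beside 99 of 292 intact ORs. Olfr718-ps1 stood at 106 and 132 CPM in mature OSNs of swap replicates 1 and 2 and at 15.4 and 11.05 CPM in the controls, without overlap (log2 fold change 3.13 ± 0.31, edgeR adjusted p = 0.0665). Olfr1025-ps1 stood at 38.8 and 50.1 CPM against 7.37 and 12.1 CPM, also without overlap (2.17 ± 0.32, edgeR adjusted p = 0.148). Olfr364-ps1 and Olfr721-ps1 lay the other way, with 0 UMIs in both swap libraries against 196 and 245 UMIs and 67 and 95 UMIs in the controls (edgeR adjusted p = 0.0665 and 0.0710). Olfr1177-ps was counted at 23 and 80 UMIs in the controls and at 2 and 1 UMIs in swap replicates 1 and 2 (log2 fold change -4.38 ± 0.86, edgeR adjusted p = 0.336). A member's level in a library rested on a few cells, for Olfr718-ps1 on 7 and 9 cells against 3 and 3 over both stages. For Olfr364-ps1 it was 0 and 1 cells in swap replicates 1 and 2 against 2 and 2 in control replicates 1 and 2. For Olfr721-ps1 it was 1 and 0 against 2 and 1, so these 2 members were not absent from swap OSNs. In immature OSNs Olfr718-ps1 stood at 22.8 and 42.5 against 2.58 and 47.7 CPM, which overlap. Fewer cells with a member and less member RNA per cell cannot be told apart in these sums. gg8tTA and tetOP2 had 1 library each and were not compared by a test.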

How the data were processed

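The authors dissociated main olfactory epithelium with papain and made 10x Chromium v3 libraries. Per the file headers, the deposited matrices of 4 libraries came from Cell Ranger 3.1.0, and no version is given in the sources used here for the other 2. They hold raw UMI counts per gene and barcode, which the authors counted on mm10 with introns included. The gene annotation behind the counts and the strand setting are not given in the sources used here. Part of the genotype labels is not reported here. The members, gene lists and tests were chosen with earlier results of these data known.

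A barcode entered the analysis when it held 1000 UMIs and 500 genes or more, which 24830 of 29950 did (57.5% in control replicate 2). Simulated doublets were scored and 0.8% of cells per 1000 cells of a library were removed (875), which left 23955 cells. Clusters came from 2000 variable genes without ORs, 15 neighbours and Leiden resolution 1.5 (scanpy 1.11.5, scikit-learn 1.9.0, Python 3.11.15) and were named from fixed markers as OSN-like mature or immature cells. An OR was called present in a cell at 3 or more UMIs. CPM are UMIs of a gene scaled to a common total of the summed cells. Annotation, frames and sequences are from GENCODE vM21 and RefSeq tables of GRCm38, aligned with blastn 2.17.0.

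Shares were compared over the 6 libraries by a two-sided exact sign-flip test, whose smallest p is 0.03125, and swap with control by a two-sided exact permutation test, whose smallest p is 0.333. Counts were summed per library and class (at least 10 cells) and fitted with edgeR 4.0.16 quasi-likelihood in R 4.3.3, with the library as a block where classes within a library were compared. Calls needed a Benjamini-Hochberg adjusted p under 0.05 and an absolute log2 fold change over 0.58. DESeq2 1.42.0 was an alternative. On simulated counts the edgeR step recovered 69% to 100% of genes changed by 1 log2 unit, with 69% in the comparison of members beside an intact OR. The simulation gave all genes the same fixed spread between libraries, so recovery in the real libraries may be lower. Intervals are exact binomial at 95%, the limit for a count of 0 is 3 counts, and both cover counting error only. The 2 replicates per group were separate samples.

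Named members were up to 25 members with the most OSNs at 3 or more UMIs (at least 5), and any member called in an edgeR comparison. Named other genes were the 5 with the smallest adjusted p in each direction among those called, called genes of the lists, and Gap43, Omp, Atf5, Ddit3, Adcy3, Nqo1 and Nrp2. The alternatives were DESeq2, upper-quartile scaling, no filter on low counts, a replicate block, minimums of 2 and 5 UMIs, cells thinned to 3000 UMIs, stage by Omp and Gap43 UMIs, doublets kept, no intact OR UMI at all, and leaving out single members and libraries. Splits by annotation, by Olfr1372-ps1, by Olfr17, by OR level and by chromosome were added after seeing the data.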

Additional observations from a re-analysis of the deposited data

How the results depend on the processing

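Among the share comparisons, the difference in member share of OR UMIs between mature and immature OSNs was -1.18 percentage points without the coding and unplaced members (unadjusted p = 0.03125 in the exact sign-flip test, against 0.156), and that in the share without an intact OR was -47.7 points (unadjusted exact p = 0.03125, against 0.594). The share of mature cells in pseudogene-only against intact-only OSNs went from -9.17 points (unadjusted exact p = 0.03125, adjusted 0.102) to -4.51 points when thinned to 3000 UMIs (unadjusted exact p = 0.25). Swap minus control in mature OSNs turned to -0.948 points without the member with the most UMIs, Olfr718-ps1, and to -0.250 without coding and unplaced members, and in immature OSNs to -0.762 with doublets kept. Leaving out 1 library in turn gave -9.67 to -8.77 points for the mature share, -0.981 to -0.425 for the UMI share, -0.0222 to 0.370 for the share of cells, -7.27 to 0.753 for the share without an intact OR, 0.187 to 0.494, -2.45 to 0.299 and -0.0906 to 1.15 for swap minus control in mature UMI share, mature cells and immature UMI share. The disrupted-member-only difference was -41.5 points at a minimum of 5 UMIs (exact p = 0.0625).

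Swap against control, with 0 genes called, gave 184 with DESeq2 and 84 without a filter on low counts in mature OSNs, and 82 and 8 in immature OSNs. With the replicate block it gave 0 and 48, where deviations of same-numbered samples correlated at 0.278 and 0.345 over 2 pairs and no label says that numbers mark a shared source. Without 1 library it gave 178 to 277 and 120 to 202, with the lone sample assumed to vary like the others. Pseudogene-only mature OSNs (9 genes) gave 0 with DESeq2, 19 without the filter, 22 with stage by Omp and Gap43 UMIs, 14 without coding members and 6 to 10 without 1 library. Pseudogene-only immature OSNs (131) gave 304 without the filter, 2 with stage by UMIs, 14 at a minimum of 5 UMIs, 0 with no intact OR UMI at all, 361 without coding members, 8 with only coding members, 25 without Olfr1372-ps1 and 67 to 143 without 1 library. Members beside an intact OR (202) gave 77 with DESeq2, 83 with stage by UMIs, 24 at a minimum of 5 UMIs and 106 to 202 without 1 library, lowest without control replicate 2. Mature against immature OSNs gave 4847 to 5028 and Olfr1372-ps1 beside an intact OR 275 to 372 without 1 library. Upper-quartile scaling moved the former from 2473 higher and 2489 lower genes to 2161 and 2879.

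Signs turned for Tppp3 in mature cells without coding members (0.54 on the log2 scale). In immature cells with no intact OR UMI at all they turned for Tex15 (-2.12), Crabp1 (-0.25), Rcor1 (-0.014), Efna5 (-0.28), Cd55 (-0.34), Nfib (-0.18) and Ldb1 (-0.29), and with only coding members for Tshz1 (-0.0085), Cd55 (-1.99) and Rprm (0.088). The causes were not tested. Under the alternatives, 142 other summary values and 1655 values of named genes kept their direction and side of the threshold or, for counts, stayed within 1.5 times, while 220 values of named genes lost the call and 56 gained it. Depth limits the members at 3 UMIs, and disrupted-member-only cells number 4 to 24 per library.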

Other observations

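Outside the neurons, members reached 3 UMIs in 10 of 541 globose basal cells and in 4 of 117 vomeronasal neurons, the latter all with Olfr1372-ps1. Single cells of other types held high counts of coding members, among them 2 Bowman gland cells with Olfr175-ps1 (at most 128 UMIs) and 1 erythroid cell with 122 UMIs of Olfr721-ps1.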
